A study of Homo sapiens with 24 samples.

Results

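The ALDHbr cells of a breast cancer line, SUM159, were compared with the ALDHbr cells of a colon cancer line, SW620, both kept for 30 h under DMSO, the vehicle of the study's drug. The members were chosen by labels, with no measured value, as the SUM159 and SW620 libraries of ALDH-positive cells under DMSO, and are 6 of the 24 libraries of the series, 3 from each line. RNA was taken after adherent culture and cell sorting, and the study describes its replicates as independent experiments. Neither line carried an engineered allele in these libraries. The 6 ALDHneg libraries of both lines under DMSO, 3 from each, served for the comparison of sorted populations and for a check of the libraries.

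ALDHbr cells are the cells with high aldehyde dehydrogenase activity in the ALDEFLUOR assay, in which a fluorescent substrate is held in cells that oxidise it. This population is used in many carcinomas as a source enriched in cancer stem cells, and ALDH1A1 and ALDH1A3, which make retinoic acid from retinaldehyde, are known for much of that activity. SUM159 is an oestrogen receptor-negative breast carcinoma line with mesenchymal features, and SW620 is a colon adenocarcinoma line that grew from a lymph node metastasis. Carcinoma cells lie along a range from the epithelial state, with E-cadherin junctions, tight junctions and keratins, to the mesenchymal state, with vimentin, N-cadherin and a fibrous matrix, which is driven by ZEB, SNAI and TWIST repressors.

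Total counts per library ran from 30253187 to 36947361 in SUM159 and from 32719582 to 41573418 in SW620. Over the genes tested, log2 levels of replicates of one line correlated at Pearson 0.990 to 0.996, and levels of libraries from different lines at 0.649 to 0.677, both across 14965 genes, which are not independent replicates. The line markers went with the labels: 9 markers of SW620 summed to 2300 to 2400 CPM (counts scaled to normalized library sizes) in SW620 and 7 markers of SUM159 to 6260 to 7180 CPM in SUM159. In each line a library stood apart. SUM159 replicate 3 held counts for 53 of 53 genes that were restricted to SW620 among the ALDHneg libraries (ALDH1A1, which SUM159 ALDHbr cells express, is among them), at a median of 0.331% of their SW620 level, against medians of 0.00609% and 0.0145% in SUM159 replicates 1 and 2. In that library the 9 SW620 markers summed to 7.82 CPM, against 0.206 and 0.258 CPM in the other SUM159 libraries. Low SUM159 levels of genes high in SW620 therefore rest on that library, and values without it are given beside many of them. SW620 replicate 2 differed from the other SW620 libraries by a chi-square per gene of 46.1 and 35.9, against 6.52 between those. Its deviations rose with gene span (Spearman 0.60 across 7908 genes, against -0.55 and -0.47). In SUM159 those of replicate 3 did so too (0.40, against -0.24 and -0.29). Deviations were taken from the mean of the line's other libraries, so the negative values follow in part from the positive library. Without SW620 replicate 2, 5828 genes passed the 2-fold test described below, against 5466 with all libraries. Each cancer is represented by 1 line, so that tissue of origin, line, and day of culture or sort cannot be told apart, and in bulk RNA fewer cells of a type and less RNA per cell cannot be told apart either.

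Most genes differed between the ALDHbr cells of the lines. By the quasi-likelihood F test of edgeR with Benjamini-Hochberg adjustment at 0.05, 11842 of 14965 genes tested differed (79.1%), 6046 higher in SUM159 and 5796 higher in SW620. Since unlike lines differ in most genes, gene groups were counted by edgeR's test against a minimum difference of 2-fold, which 5466 genes passed (36.5%). Of these, 2994 were higher in SUM159 (20.0%) and 2472 in SW620 (16.5%). The median absolute difference of these genes was 3.35 on the log2 scale. At the other end, 6697 genes (44.8%) had a 95% interval of the log2 difference within -1 and 1. These shares of all genes tested are the background for the counts in gene lists below. All log2 differences below are SUM159 minus SW620, and fold values are ratios of the counts summed over each line's libraries on normalized library sizes. The SE and 95% interval of a fitted difference or interaction were derived from its F test. The SE was the absolute difference over the square root of F. For large differences on few counts in a group this SE can lie below counting error. It then does not give the precision of the size.

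**Figure D1:**
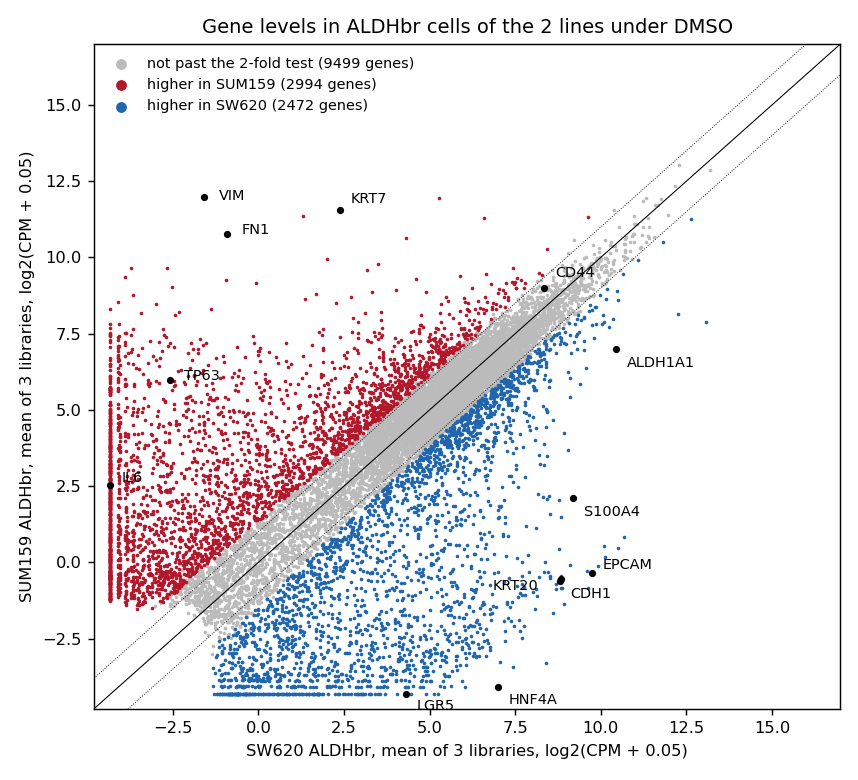
Mean level of each tested gene in SW620 ALDHbr cells (horizontal axis) and SUM159 ALDHbr cells (vertical axis), as log2(CPM + 0.05) of the mean of 3 libraries per line. The solid line marks equal levels and the dotted lines 2-fold differences. The 2994 red genes passed the 2-fold test as higher in SUM159 and the 2472 blue genes as higher in SW620; VIM, FN1 and KRT7 lie far above the line, HNF4A, CDH1 and EPCAM far below, and CD44 between the dotted lines.

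Mesenchymal genes were higher in SUM159 ALDHbr cells. Of 22 genes in the list 20 were tested, and 18 passed the 2-fold test as higher in SUM159, 1 as higher in SW620 and 1 in neither direction, with a median log2 difference of 6.21 against 0.03 over all genes tested (7.14 without SW620 replicate 2). VIM (Entrez 7431), the intermediate filament vimentin, was at 3876, 4572 and 3793 CPM in the SUM159 libraries and at 0.356, 0.125 and 0.372 CPM in the SW620 libraries. All 3 SUM159 libraries were far above all 3 SW620 libraries, with a log2 difference of 13.76 on 31 SW620 counts and an adjusted p of 2.48e-11. FN1, which encodes the matrix glycoprotein fibronectin, was at 1583, 1704 and 1999 CPM against 0.533, 0.502 and 0.401 CPM, a log2 difference of 11.83 on 51 SW620 counts (adjusted p = 2.48e-11). Its lines did not overlap either, and the levels were close among the replicates of each line. CDH2, the mesenchymal cadherin N-cadherin, was at 112 ± 11.7 CPM (SD, n = 3) in SUM159 and had 1 count in 1 of 3 SW620 libraries, a ratio of 11900 with a counting interval of 2130 to 469000. SPARC, a secreted matrix-binding protein, was at 397, 458 and 441 CPM in SUM159 and had 3 counts over the SW620 libraries, a ratio of 15300 (5230 to 74200).

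S100A4, a calcium-binding protein often used as a fibroblast marker, went the other way from the rest of the mesenchymal list. It was at 4.26, 3.03 and 5.45 CPM in SUM159 and at 648, 481 and 625 CPM in SW620, a log2 difference of -7.09 ± 0.21 (SE, adjusted p = 6.11e-10), and -7.32 without SUM159 replicate 3. The levels in the SUM159 libraries were low in every replicate, so that this gene did not depend on the library that stood apart. TAGLN, an actin-binding protein of smooth muscle, had overlapping levels of 3.46 ± 0.738 and 3.04 ± 0.492 CPM (SD, n = 3; log2 difference 0.18, 95% interval -0.27 to 0.63). THY1, a surface glycoprotein of fibroblasts, was near the limit of the data with 46 counts over SUM159 and 11 over SW620, and its call was lost without SUM159 replicate 3 at a log2 difference of 2.01 against 2.04 with it. The list also had 17 calls higher in SUM159 by DESeq2 and without SUM159 replicate 1 or SW620 replicate 1. FAP and LUM had too few counts to be tested.

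Epithelial genes were higher in SW620 ALDHbr cells in 28 of 28 members, all past the 2-fold test, with a median log2 difference of -8.54, and -9.39 without SUM159 replicate 3. CDH1 (Entrez 999), the cadherin of epithelial adherens junctions, was at 405, 494 and 436 CPM in SW620 and at 0, 0.064 and 1.74 CPM in SUM159. The line difference was -9.39 ± 0.57 on the log2 scale (SE, adjusted p = 1.66e-07) with all libraries. Without replicate 3 SUM159 held 2 counts, a ratio of 14400 (3980 to 119000). EPCAM (Entrez 4072), an epithelial adhesion molecule, was at 932, 758 and 864 CPM in SW620 and had counts in SUM159 in replicate 3 alone, at 2.22 CPM. Its ratio was 1030 with all libraries and at least 18600-fold without that library, so that the size of such differences was set by 1 library while the direction was not. The smallest differences of the list were those of junction plaque proteins, which SUM159 also expressed: PKP3, a plakophilin of desmosomes, was at 50.2 ± 2.77 CPM against 277 ± 22.0 CPM, and JUP, plakoglobin, at 42.8 ± 10.7 CPM against 547 ± 23.2 CPM (SD, n = 3).

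The serine protease ST14 (matriptase) and its inhibitors SPINT1 and SPINT2 were among the epithelial genes with the largest differences. ST14 was at 788, 735 and 827 CPM in SW620 and at 0.029, 0 and 1.48 CPM in SUM159, a log2 difference of -10.45. Without SUM159 replicate 3 the ratio was 51100 (9170 to 2020000), on 1 count in SUM159. Splicing factors and transcription factors of the epithelial state moved with the structural genes: ESRP1, which directs epithelial exon choice, differed by -8.60 (-9.37 without replicate 3), GRHL2, an epithelial activator, by -8.48 (a ratio of 4270, 766 to 169000, on 1 count), and ELF3, an ETS factor, by -7.67 (-7.61) on the log2 scale. Of 20 claudins, the strand proteins of tight junctions, 9 were tested. Of these, 7 were higher in SW620, 1 (CLDN15) was higher in SUM159, and CLDN12 passed in neither direction. CLDN2 was at 165, 172 and 178 CPM in SW620 and had 0 counts in SUM159 replicates 1 and 2, a ratio of 3580 with all libraries and at least 3730-fold without replicate 3. CLDN7 was at 219, 184 and 216 CPM against 0, 0.032 and 0.358 CPM, a log2 difference of -10.46 (without replicate 3 a ratio of 13500, 2430 to 534000, on 1 count). CLDN15 was at 12.4 ± 0.644 CPM in SUM159 and 5.06 ± 0.456 CPM in SW620 (SD, n = 3; adjusted p = 0.0109).

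The promoters of genes that differ between the epithelial and mesenchymal state can hold a known sequence element, the E-box CAGGTG, which ZEB and SNAI proteins bind. RefSeq windows of 300 bases around gene starts (GRCh38.p14, 250 bases before and 50 after) were searched for it on both strands, where the other strand reads CACCTG. Of the 28 epithelial genes 13 had a window and 9 held the element (69.2%), as did 6 of 15 matched claudins (40%), 3 of 15 matched mesenchymal genes (20%) and 6571 of 27305 genes in all (24.1%). The 200 bases before the start are shown on the gene's strand, with the element in capitals. They are given for the claudin CLDN7 and the epithelial genes CRB3, TJP3 and ELF3, which hold it. VIM, which does not in this window, is shown beside them. CLDN7 lies at chr17:7262479-7262678 on the minus strand, with matches in this stretch that begin 174, 135, 20 and 9 bases before the start. CRB3, a cell polarity protein, lies at chr19:6464071-6464270 on the plus strand, with matches 147, 89 and 60 bases before it. TJP3, the tight junction scaffold ZO-3, lies at chr19:3721537-3721736 on the plus strand with 1 match 7 bases before the start, ELF3 at chr1:202010387-202010586 on the plus strand with 1 match 120 bases before it, and VIM at chr10:17228041-17228240 on the plus strand. CLDN7 and TJP3 have 2 windows each, of which the one with most matches is shown.
CLDN7: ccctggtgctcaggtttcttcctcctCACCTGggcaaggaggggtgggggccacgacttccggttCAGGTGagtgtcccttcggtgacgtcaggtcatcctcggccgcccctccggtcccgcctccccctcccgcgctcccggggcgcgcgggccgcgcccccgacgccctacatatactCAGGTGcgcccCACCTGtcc
CRB3: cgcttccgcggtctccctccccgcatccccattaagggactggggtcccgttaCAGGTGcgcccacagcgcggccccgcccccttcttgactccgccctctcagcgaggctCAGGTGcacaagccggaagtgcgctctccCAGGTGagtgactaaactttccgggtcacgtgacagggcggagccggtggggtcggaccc
TJP3: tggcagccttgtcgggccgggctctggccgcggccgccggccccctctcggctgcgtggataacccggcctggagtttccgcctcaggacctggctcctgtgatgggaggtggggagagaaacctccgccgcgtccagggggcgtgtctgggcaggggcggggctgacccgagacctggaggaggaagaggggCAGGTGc
ELF3: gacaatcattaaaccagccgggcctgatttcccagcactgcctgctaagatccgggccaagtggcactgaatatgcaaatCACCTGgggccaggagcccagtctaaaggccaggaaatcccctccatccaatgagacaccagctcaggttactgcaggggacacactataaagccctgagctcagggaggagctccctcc
VIM: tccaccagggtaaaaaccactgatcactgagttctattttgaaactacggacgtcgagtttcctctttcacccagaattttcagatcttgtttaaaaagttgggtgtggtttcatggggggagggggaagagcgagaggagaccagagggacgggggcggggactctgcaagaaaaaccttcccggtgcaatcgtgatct
Of the 129 genes named by rule 89 had a window, and 28.1% of them held this element. The related E-box CAGGTA was held by 11.2% of these and 11.8% of all genes, the TCF/LEF element CTTTGAT by 4.49% and 3.18%, and the AP-1 element TGANTCA by 15.7% and 9.37%. A match describes letters in a window and was not tested as a binding site. CRB3 was at 29.3, 26.4 and 28.2 CPM in SW620 and had 3 counts in SUM159, all in replicate 3, and TJP3 was at 77.7 ± 3.76 CPM (SD, n = 3) in SW620 with 8 counts in SUM159, also all in replicate 3.

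**Figure D2:**
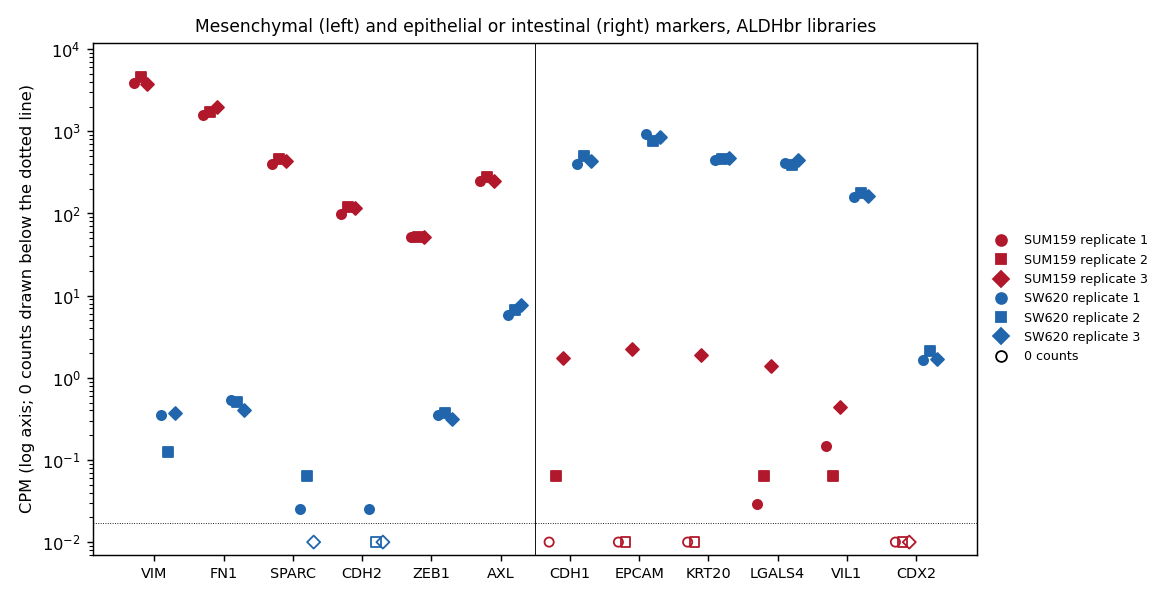
CPM on a log axis of 6 mesenchymal and 6 epithelial or intestinal genes in each of the 6 ALDHbr libraries; shapes mark the replicate, and open symbols below the dotted line mark 0 counts. VIM, FN1, SPARC, CDH2, ZEB1 and AXL are higher in all 3 SUM159 libraries, the other 6 genes in all 3 SW620 libraries, and SUM159 replicate 3 is the highest SUM159 library for CDH1, EPCAM, KRT20, LGALS4 and VIL1.

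Intestinal identity genes were higher in SW620 ALDHbr cells. Of 26 genes 22 were tested, of which 20 were higher in SW620 and 1 in SUM159, with a median log2 difference of -8.45 (-6.88 with genes at 0 counts set at their bound). HNF4A (Entrez 3172), a nuclear receptor of gut and liver epithelium, was at 124, 130 and 129 CPM in SW620 and had 1 count in SUM159, in replicate 3, a ratio of 13300 (2390 to 525000), and at least 2770-fold without that library. The homeobox factor CDX2 (Entrez 1045), which specifies the hindgut, was at 1.62, 2.13 and 1.69 CPM in SW620 and at 0 counts in all 3 SUM159 libraries, at least 62.5-fold higher in SW620. Without SUM159 replicate 3 this bound was 39.1-fold, as fewer libraries give a lower bound. KRT20, the keratin of differentiated colonocytes, was at 453, 459 and 469 CPM in SW620 and had counts in SUM159 in replicate 3 alone, at 1.92 CPM, a ratio of 639 with all libraries and at least 9990-fold without it. The brush border protein VIL1 was at 166 ± 9.91 CPM in SW620 and 0.215 ± 0.194 CPM in SUM159 (SD, n = 3; log2 difference -9.48, and -10.54 without replicate 3). GATA6, a factor of endoderm, differed by -1.05 and did not pass the 2-fold test (adjusted p = 0.381).

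Genes of the Wnt pathway and intestinal stem cells were split. Of 22 genes 17 were tested, with 12 higher in SW620, 3 higher in SUM159 and 2 in neither direction, and a median log2 difference of -2.65. LGR5 (Entrez 8549), the R-spondin receptor of crypt stem cells, was at 18.9, 21.6 and 18.8 CPM in SW620 and at 0 counts in every SUM159 library, at least 684-fold higher in SW620 (at least 428-fold without SUM159 replicate 3). ASCL2, a transcription factor of the same cells, was at 8.64 ± 1.23 CPM in SW620 (SD, n = 3) and also at 0 in SUM159, at least 301-fold higher (at least 188-fold without that library). AXIN2 and RNF43, feedback inhibitors that canonical Wnt signalling induces, were higher in SW620 by 3.42 and 4.99 on the log2 scale, with SUM159 levels of 6.65 ± 0.618 and 6.92 ± 0.594 CPM. The TCF family members were opposed. TCF7 was at 93.6 ± 11.8 CPM in SW620 and 2.77 ± 0.335 CPM in SUM159, while LEF1 was at 13.8, 14.1 and 12.4 CPM in SUM159 and at 0 in SW620, at least 474-fold higher in SUM159. EPHB2, an ephrin receptor that sorts crypt cells, was also higher in SUM159, at 115 ± 9.67 CPM against 12.6 ± 0.690 CPM.

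Luminal mammary genes were mostly higher in the colon line. Of 14 luminal genes tested of 17, 10 were higher in SW620, 2 in SUM159 and 2 in neither direction, with a median log2 difference of -4.40. KRT8, a keratin of simple epithelia, was at 9024, 7590 and 9062 CPM in SW620 and at 217, 260 and 237 CPM in SUM159, while KRT7 (Entrez 3855), a keratin of ductal epithelia, was at 5.51, 4.33 and 5.67 CPM in SW620 and at 2841, 3230 and 2946 CPM in SUM159. The 2 keratins thus went in opposite directions without overlap, with log2 differences of -5.17 ± 0.12 and 9.18 ± 0.14 (SE). FOXA1, a pioneer factor of luminal cells, was higher in SW620, at 104 ± 7.25 CPM against 3.96 ± 0.159 CPM (SD, n = 3). ESR1 had 2 counts in SUM159 and 1 in SW620, PGR and KIT had 0 in all 6 libraries, and none of them was tested.

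Basal genes were evenly divided, with 5 higher in SUM159, 4 higher in SW620 and 6 in neither direction among 15 tested of 18, and a median log2 difference of 0.07. TP63, the master factor of basal epithelia, was at 62.7, 66.2 and 62.2 CPM in SUM159 and at 0.025, 0.125 and 0.200 CPM in SW620. Its log2 difference was 9.09 on 12 SW620 counts (adjusted p = 1.87e-10), and 9.74 without SW620 replicate 3. KRT6A was higher in SUM159 at 11.5 ± 0.825 CPM against 3 counts over the SW620 libraries, a ratio of 409 (139 to 1980). Other keratins of this list were higher in SW620: KRT17 was at 6.01 ± 1.15 CPM against 0.409 ± 0.0440 CPM and KRT15 at 12.0 ± 1.83 CPM against 1.82 ± 0.557 CPM (SD, n = 3). CDH3, the basal cadherin, was also higher in SW620, at 24.0 ± 1.28 CPM against 0.421 ± 0.0120 CPM. The laminin chains LAMB3 and LAMA3 had log2 differences of 0.78 and -0.43 and did not pass the 2-fold test.

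Of the 19 ALDH genes 15 were tested, and 9 passed the 2-fold test as higher in SW620 ALDHbr cells, none as higher in SUM159 and 6 in neither direction, with a median log2 difference of -1.58. ALDH1A1 (Entrez 216) was at 143, 97.9 and 145 CPM in SUM159 and at 1432, 1339 and 1394 CPM in SW620. The libraries of the lines did not overlap, with a log2 difference of -3.43 ± 0.15 (SE, adjusted p = 2.23e-08), so that cells of the same ALDHbr label differed 10.7-fold in this transcript. ALDH1A3 (Entrez 220), the other retinaldehyde dehydrogenase, was at 0.470, 0.451 and 0.844 CPM in SUM159 and at 143, 153 and 140 CPM in SW620, a log2 difference of -7.91 ± 0.17 (SE, adjusted p = 7.29e-11), and -8.29 without SUM159 replicate 3. ALDH1A2, of the same subfamily, had 37 counts over the SUM159 libraries and 0 in SW620, at least 12.6-fold higher in SUM159 (at least 7.61-fold without replicate 3), and was too low to be tested. Enzymes of other aldehydes also differed. ALDH3A1, which oxidises aromatic and lipid-derived aldehydes, was at 205, 174 and 211 CPM in SW620 and had SUM159 counts in replicate 3 alone, at 0.665 CPM, a ratio of 792 with all libraries and at least 4290-fold without it. ALDH2, the mitochondrial acetaldehyde dehydrogenase, was at 1.77 ± 0.506 CPM against 140 ± 9.19 CPM, and ALDH7A1, of lysine breakdown, at 2.33 ± 0.298 CPM against 58.9 ± 3.10 CPM (SD, n = 3). The genes with similar levels included ALDH9A1, with a log2 difference of -0.07 (95% interval -0.28 to 0.13), and ALDH1B1, with one of 0.30 (0.13 to 0.47).

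The line difference in ALDH1A1 depended on the sorted population. In a fit of the 12 DMSO libraries, whose CPM differ slightly from those above through normalization, SUM159 ALDHneg cells had 0.461, 0.397 and 0.521 CPM of ALDH1A1 and SW620 ALDHneg cells had 941, 983 and 959 CPM. Among ALDHneg cells the lines therefore differed by -11.01 on the log2 scale against -3.43 among ALDHbr cells, and the difference between these, tested as an interaction, was 7.58 ± 0.23 (SE, adjusted p = 1.17e-10, edgeR F test). In SUM159 the ALDHneg libraries were all far below the ALDHbr libraries, while the SW620 populations lay close, at 1395 ± 43.7 and 961 ± 20.9 CPM (SD, n = 3). ALDH1A3 was at 0.594 ± 0.231 and 0.193 ± 0.0630 CPM in SUM159 ALDHbr and ALDHneg cells and at 146 ± 7.15 and 189 ± 4.71 CPM in those of SW620, with an interaction of 1.98 ± 0.33 (SE, adjusted p = 0.000862). ALDH7A1 went the other way, at 2.35 ± 0.313 CPM in SUM159 ALDHbr cells against 17.0 ± 4.14 CPM in SUM159 ALDHneg cells and at 59.1 ± 2.95 and 55.3 ± 1.17 CPM in the SW620 populations, an interaction of -2.94 ± 0.21 (SE, adjusted p = 4.67e-07). Over the family the interaction was called for 9 of 19 genes, 4 higher and 5 lower, where 14.5% of all genes were called.

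**Figure D3:**
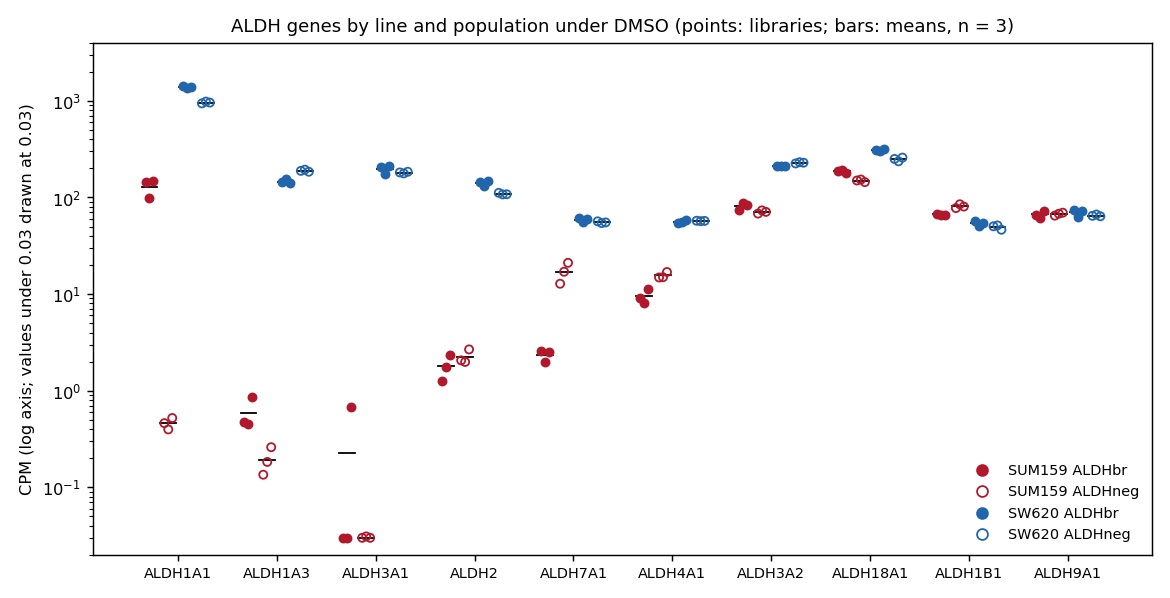
CPM on a log axis of 10 ALDH genes in the 12 DMSO libraries of both lines and both sorted populations, with each library as a point and the mean of 3 libraries as a bar; values under 0.03 are drawn at 0.03. ALDH1A1 is the gene whose SUM159 level drops most from ALDHbr to ALDHneg cells, while its SW620 levels lie close together, and ALDH9A1 has similar levels in all 4 groups.

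Stem cell markers used in breast and colon cancer differed in direction. Of 26 listed 21 were tested, with 4 higher in SUM159, 9 higher in SW620 and 8 in neither direction, and a median log2 difference of -0.60. Past the 2-fold test were 61.9%, against 36.5% of all genes. CD44, the hyaluronan receptor, was at 490, 539 and 511 CPM in SUM159 and at 297, 362 and 323 CPM in SW620; the levels did not overlap, but the log2 difference of 0.65 (95% interval 0.46 to 0.85) lay under 2-fold. CD24, a surface glycoprotein whose absence is used with CD44 to mark breast cancer stem cells, was at 13.2, 11.0 and 14.0 CPM in SUM159 and at 545, 538 and 515 CPM in SW620, a log2 difference of -5.38 ± 0.11 (SE, adjusted p = 6.28e-11). PROM1, the CD133 antigen of colon cancer stem cells, was at 28.1 ± 1.55 CPM in SW620 and had 1 count in SUM159, in replicate 3, a ratio of 2920 (524 to 115000), and at least 608-fold without that library. ABCG2, the transporter behind the side population assay, was higher in SW620 at 144, 152 and 144 CPM against 14.9, 17.3 and 14.5 CPM, and SOX9, a factor of crypt progenitors, at 139 ± 16.7 CPM against 5.56 ± 1.65 CPM. ITGB3, an integrin chain, was at 23.4 ± 2.32 CPM in SUM159 and had 1 count in SW620, a ratio of 2510 (450 to 99100), and ALCAM, an adhesion molecule, was at 78.7 ± 6.78 CPM against 19.5 ± 2.36 CPM. SOX2 and NANOG were too low to be tested.

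Among 49 tested lineage transcription factors of 55, 12 were higher in SUM159, 28 in SW620 and 9 in neither direction, with a median log2 difference of -1.63. The repressors of the epithelial state were higher in SUM159. ZEB1 was at 52.0, 51.3 and 51.9 CPM against 0.356, 0.376 and 0.315 CPM, a log2 difference of 7.20 on 37 SW620 counts (adjusted p = 4.04e-11), with closely matched replicates in both lines. ZEB2 was at 41.2, 38.0 and 29.8 CPM and TWIST2 at 42.5, 38.8 and 33.0 CPM in SUM159, and both had 0 counts in all SW620 libraries, at least 1270-fold and at least 1340-fold higher in SUM159. SNAI2 was at 83.1 ± 15.6 CPM (SD, n = 3) against 1 count, and SNAI1 was the least different of the group, at 10.9 ± 1.79 CPM against 3.21 ± 0.208 CPM. The TEAD1 and TEAD4 factors, which bind DNA for YAP, had log2 differences of 0.11 (95% interval -0.25 to 0.46) and 0.03 (-0.16 to 0.21).

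HOX genes, which encode position along the body axis and lie in 4 clusters, were higher in one line or the other by cluster. Of 39 genes 30 were tested, with 8 higher in SUM159, 19 in SW620 and 3 in neither direction. In the HOXA cluster on chromosome 7, 9 of 11 tested genes were higher in SW620 and none in SUM159, and in the HOXB cluster on chromosome 17 this held for 9 of 9. In the HOXC cluster on chromosome 12, 7 of 9 tested genes were higher in SUM159 and 1, HOXC12, in SW620 with 44 counts against 3. The HOXB genes summed to 2.47, 2.48 and 2.68 CPM in SUM159 and to 454, 432 and 440 CPM in SW620, while the HOXC genes summed to 174, 172 and 161 CPM in SUM159 and to 19.6, 19.0 and 19.3 CPM in SW620. HOXB9 was at 198, 193 and 203 CPM in SW620 against 0.352, 0.258 and 0.741 CPM in SUM159, a log2 difference of -8.71 (-9.32 without SUM159 replicate 3). HOXC10 was at 57.1, 60.3 and 54.6 CPM in SUM159 against 0.203, 0.157 and 0.172 CPM in SW620, a log2 difference of 8.30 on 19 SW620 counts (adjusted p = 4.04e-11). HOXA13, the most posterior gene of its cluster, was at 76.9, 84.2 and 71.4 CPM in SW620 and 0.587, 0.451 and 0.409 CPM in SUM159. Of 9 HOXD genes on chromosome 2, HOXD8 alone was tested, at 4.26 ± 0.637 CPM in SUM159 and 0.0476 ± 0.0333 CPM in SW620 (SD, n = 3).

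Collagens were higher in SUM159 ALDHbr cells for 19 of 22 genes tested of 36, with 2 higher in SW620 and 1 in neither direction, and a median log2 difference of 6.44 (6.20 with genes at 0 counts set at their bound). COL8A1, a short-chain collagen, was at 676, 543 and 751 CPM in SUM159 and had 2 counts in SW620, a ratio of 35300 (9770 to 291000). The basement membrane chains COL4A5 and COL4A6 were at 121 ± 8.00 and 170 ± 8.54 CPM in SUM159 (SD, n = 3) and had 1 count each in SW620. COL1A1, a chain of fibrillar collagen, was at 105, 144 and 86.0 CPM against 0.940, 0.784 and 1.12 CPM, but its partner chain COL1A2 had 7 counts in SUM159 and 0 in SW620. The exceptions were COL17A1, the hemidesmosomal collagen of epithelia, at 232 ± 23.9 CPM in SW620 against 24.9 ± 2.84 CPM, and COL9A3, a cartilage collagen chain, at 55.4 ± 5.58 CPM against 0.368 ± 0.241 CPM. For COL9A3 the log2 difference was -7.17, and -7.89 without SUM159 replicate 3. COL18A1, the precursor of endostatin, had a log2 difference of 0.35.

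Integrins, the receptors for these matrix proteins, were divided, with 6 of 18 tested of 26 higher in SUM159, 5 higher in SW620 and 7 in neither direction. Of those tested 61.1% passed the 2-fold test, against 36.5% of all genes. ITGA5, the fibronectin receptor chain, was at 364, 408 and 342 CPM in SUM159 and had 1 count in SW620, a ratio of 39200 (7030 to 1550000). ITGB6, an epithelial chain that activates TGF-beta, was at 34.3, 35.0 and 30.1 CPM in SW620 against 0.176, 0.064 and 0.153 CPM, a log2 difference of -7.91 on 14 SUM159 counts. ITGB1, the beta chain that pairs with ITGA5, was at 796, 845 and 866 CPM in SUM159 and at 945, 991 and 905 CPM in SW620 (log2 difference -0.18, 95% interval -0.35 to -0.01). Of 21 matrix proteases and inhibitors tested of 28, 14 were higher in SUM159, 5 in SW620 and 2 in neither direction, with a median log2 difference of 4.69 (6.30 without SW620 replicate 3). PLAT, tissue plasminogen activator, was at 146, 135 and 124 CPM in SUM159 and had 1 count in SW620, and the gelatinase MMP2 was at 146 ± 13.2 CPM against 0.204 ± 0.161 CPM. MMP7, matrilysin of glandular epithelium, was at 165, 141 and 163 CPM in SW620 and at 0.029, 0 and 0.665 CPM in SUM159, a log2 difference of -9.23 (without replicate 3 a ratio of 10200, 1840 to 404000, on 1 count). TIMP1, an inhibitor of these proteases, had overlapping levels of 128 ± 2.70 and 131 ± 18.2 CPM.

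Receptor tyrosine kinases were evenly divided in number, with 13 higher in each line and 6 in neither direction among 32 tested of 48, with a median log2 difference of -0.10. This is 81.2% past the 2-fold test, against 36.5% of all genes. PDGFRA, a receptor of platelet-derived growth factor, was at 50.1, 43.1 and 50.7 CPM against 0 counts in SW620, at least 1710-fold, FGFR1 at 57.3 ± 9.87 CPM against 3 counts, and AXL, the receptor of GAS6, at 249, 277 and 250 CPM against 5.76, 6.61 and 7.70 CPM (log2 difference 5.28 ± 0.12, SE). The other FGF receptors were higher in SW620, with log2 differences of -7.12 for FGFR2 (-7.81 without SUM159 replicate 3), -4.32 for FGFR3 and -8.43 for FGFR4. In the ERBB family, EGFR was higher in SUM159 at 329, 329 and 325 CPM against 67.9, 120 and 76.0 CPM (log2 difference 1.90 ± 0.18, SE, adjusted p = 0.000184). ERBB2 was higher in SW620 at 199 ± 3.91 CPM against 69.9 ± 1.33 CPM, and ERBB3, the kinase-impaired partner, at 192 ± 21.4 CPM against 0.408 ± 0.331 CPM (SD, n = 3; log2 difference -8.82, and -9.59 without SUM159 replicate 3). ROS1, a kinase related to the insulin receptor, was at 56.5, 49.3 and 70.9 CPM in SUM159 and at 0, 0.251 and 0 CPM in SW620. IGF1R had a log2 difference of 0.03 (95% interval -0.27 to 0.33).

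Inflammatory cytokines and chemokines were mostly higher in SUM159 ALDHbr cells, with 13 of 21 tested of 29 higher in SUM159, 5 in SW620 and 3 in neither direction, and a median log2 difference of 2.74 (3.48 without SUM159 replicate 3 and 3.33 without SW620 replicate 1). CXCL8, the neutrophil attractant interleukin-8, was at 438, 474 and 331 CPM against 7.85, 5.71 and 6.01 CPM, a log2 difference of 5.98 ± 0.18 (SE, adjusted p = 7.15e-10). IL6 was at 7.43, 6.12 and 3.63 CPM in SUM159 and at 0 in every SW620 library, at least 199-fold, and CSF3, the growth factor of neutrophils, was at 72.8 ± 16.2 CPM (SD, n = 3) against 1 count, a ratio of 7820 (1400 to 309000). SUM159 replicate 3 was the lowest SUM159 library for CXCL8 and IL6. Higher in SW620 were TNFSF10, the death ligand TRAIL, at 5.77 ± 0.994 CPM against 0 counts in SUM159, and LIF, a cytokine of the IL-6 family, at 36.8, 35.0 and 34.1 CPM against 12.4, 12.3 and 6.49 CPM.

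In the pathway downstream of IL-6, whose factor STAT3 is a known target of the study's drug, several receptor genes were among the calls. Of 35 genes tested of 38, 12 were higher in SUM159, 4 in SW620 and 19 in neither direction. The share past the 2-fold test was 45.7%, against 36.5% of all genes. An interval within -1 and 1 was found for 13 of the 35, where 44.8% of all genes had one. The shared receptor chain IL6ST was at 503, 479 and 565 CPM in SUM159 and 64.6, 102 and 60.4 CPM in SW620, a log2 difference of 2.77 ± 0.18 (SE, adjusted p = 1.77e-06), and IL6R was at 71.2 ± 3.55 CPM against 3.64 ± 0.312 CPM. LIFR was at 49.4, 51.7 and 57.5 CPM in SUM159 and at 0 in SW620, at least 1880-fold, and OSMR, the oncostatin M receptor, at 140 ± 17.0 CPM against 0.273 ± 0.184 CPM (SD, n = 3). STAT3 (Entrez 6774) was at 182, 160 and 171 CPM in SUM159 and at 92.5, 111 and 99.9 CPM in SW620; it was higher without overlap in SUM159 by 0.76 (95% interval 0.56 to 0.95, F test adjusted p = 1.79e-05), which lay under 2-fold. JAK2 had a log2 difference of 0.20 (-0.13 to 0.54). SOCS3, a feedback inhibitor that STAT3 induces, was at 23.0 CPM in each SUM159 library and at 0.889, 0.815 and 0.515 CPM in SW620, a log2 difference of 4.95 ± 0.16 (SE, adjusted p = 1.75e-09). PTPN6, a phosphatase that acts on this pathway, was higher in SW620 at 20.9 ± 1.69 CPM against 0.253 ± 0.182 CPM.

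TGF-beta and BMP genes had 11 of 32 tested of 36 higher in SUM159, 4 in SW620 and 17 in neither direction. The 2-fold test was passed by 46.9% of them, against 36.5% of all genes. BMP4, a ligand, was at 350, 371 and 376 CPM in SW620 and at 0.323, 0.322 and 1.41 CPM in SUM159 (log2 difference -8.98, and -10.13 without SUM159 replicate 3). The antagonist NOG, noggin, was at 19.9, 19.9 and 17.6 CPM in SUM159 and at 0 in SW620, at least 675-fold. Among signal transducers, SMAD4, the common partner of the SMADs, was at 53.4, 52.5 and 56.7 CPM in SUM159 and at 6.83, 7.93 and 7.04 CPM in SW620, a log2 difference of 2.90 ± 0.10 (SE, adjusted p = 5.32e-09), while SMAD3 was at 174 ± 9.44 and 174 ± 14.4 CPM (SD, n = 3; log2 difference 0.01). ID3, a target of BMP signalling, was at 318 ± 18.2 CPM in SUM159 against 0.331 ± 0.135 CPM. YAP and TEAD targets were higher in SUM159 in 16 of 21 tested of 22 and in SW620 in none, with a median log2 difference of 3.05. The matricellular proteins CCN1 and CCN2 were at 136, 138 and 131 CPM and at 104, 131 and 117 CPM in SUM159, against 18.9 ± 0.342 and 7.50 ± 0.591 CPM in SW620, and AMOTL1, a junction protein that binds YAP, was at 99.3 ± 3.83 CPM against 1 count.

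Most Fanconi anemia genes, whose products repair DNA interstrand crosslinks, did not pass the 2-fold test. All 30 were tested, of which 4 were higher in SUM159, 2 in SW620 and 24 in neither direction. By the F test 12 were higher in SUM159, 11 in SW620 and 7 in neither direction, where 79.1% of all genes were called. The share past the 2-fold test was 20.0%, against 36.5% of all genes. An interval within -1 and 1 was found for 18 of the 30, where 44.8% of all genes had one. The median log2 difference was -0.07. The 2-fold calls were few under other settings too, 1 higher in SUM159 and none in SW620 by DESeq2, 1 and 2 without SW620 replicate 3, and 5 and none under scaling by library size. FANCD2 (Entrez 2177) and FANCI form the heterodimer that is ubiquitinated at crosslinks, and they went in opposite directions. FANCD2 was at 92.6, 91.2 and 93.9 CPM in SUM159 and at 43.4, 41.2 and 40.1 CPM in SW620, a log2 difference of 1.15 (95% interval 0.99 to 1.32, adjusted p = 0.0220), a call that was lost without SUM159 replicate 3 at a difference of 1.14. FANCI was at 115, 116 and 115 CPM in SUM159 and at 239, 249 and 238 CPM in SW620, a log2 difference of -1.07 (-1.22 to -0.92) that passed the F test (adjusted p = 1.24e-07) and not the 2-fold test (adjusted p = 0.130). FANCM, the translocase that anchors the core complex, and ERCC4, the XPF nuclease subunit, were higher in SUM159 by 1.34 and 1.32, and FANCL, the ubiquitin ligase, was higher in SW620 by 1.23. FANCA had a log2 difference of 0.11 (-0.05 to 0.27). Among 26 genes of mismatch repair and double-strand break repair, none passed the 2-fold test as higher in SUM159. By the F test 8 were higher in SUM159, 9 in SW620 and 9 in neither direction, where 79.1% of all genes were called. An interval within -1 and 1 was found for 21, where 44.8% of all genes had one. The 2-fold test was passed by 7.69%, against 36.5% of all genes, which were 2 genes higher in SW620. MLH3, a mismatch repair gene, was one of them, at 13.5 ± 0.790 CPM in SW620 against 2.30 ± 0.562 CPM in SUM159 (SD, n = 3).

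Genes of HLA class I antigen presentation were higher in SUM159 for 7 of 20, higher in SW620 for 1 and in neither direction for 12, which is 40.0% past the 2-fold test against 36.5% of all genes. B2M, the common light chain of class I molecules, had a log2 difference of 0.06, whereas the heavy chain HLA-B was at 173, 165 and 130 CPM in SUM159 and 33.7, 29.0 and 33.5 CPM in SW620. HLA genes share sequence, and the handling of shared reads is not given in the sources used here, so that their split is uncertain. NLRC5, the transactivator of class I genes, was at 27.1 ± 1.51 CPM against 0.517 ± 0.148 CPM, the immunoproteasome subunit PSMB9 at 24.9 ± 1.23 CPM against 0.544 ± 0.205 CPM, and the peptide transporter TAP1 at 82.8 ± 1.44 CPM against 10.8 ± 0.728 CPM. PSMB10, another such subunit, was the 1 gene higher in SW620 (log2 difference -1.29, adjusted p = 0.0153), and was not called without SUM159 replicate 3 at a difference of -1.20.

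NRF2 targets, which detoxify electrophiles, were higher in SW620 in 11 of 23, in SUM159 in 4 and in neither direction in 8. Of the list 65.2% passed the 2-fold test, against 36.5% of all genes. GPX2, the glutathione peroxidase of gut epithelium, was at 765, 760 and 819 CPM in SW620 and had SUM159 counts in replicate 3 alone, at 2.30 CPM, a ratio of 904 with all libraries and at least 17000-fold without it. AKR1B10, an aldo-keto reductase, was at 455, 415 and 459 CPM in SW620 against 0.029, 0.129 and 3.78 CPM (log2 difference -8.28, and -12.43 without replicate 3). HMOX1, heme oxygenase, went the other way at 201, 300 and 165 CPM in SUM159 against 26.6, 25.8 and 26.3 CPM, as did SLC7A11, the cystine importer, at 319 ± 22.0 CPM against 68.8 ± 19.6 CPM (SD, n = 3). Among 11 drug efflux transporters 3 were higher in SUM159 and 4 in SW620 (63.6% past the 2-fold test, against 36.5% of all genes). ABCB1, the multidrug pump P-glycoprotein, was at 1.53 ± 0.253 CPM in SUM159 against 7 counts over the SW620 libraries, and ABCC1 had a log2 difference of -0.24. Of 18 haematopoietic and endothelial markers, 14 were too low to be tested, and the 18 summed to 20.1 to 22.4 CPM in SUM159 and 17.5 to 20.7 CPM in SW620. PTPRC and PECAM1 were among the untested, CD33 was higher in SUM159 (6.06 ± 0.977 CPM against 0.228 ± 0.176 CPM) and CD14 in SW620 (4.61 ± 0.713 CPM against 0.395 ± 0.284 CPM).

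Across all genes, some of the largest differences fell outside these lists. Among genes with 10 or more counts in the lower line, those highest in SUM159 after VIM were ANPEP, a surface aminopeptidase (828, 816 and 779 CPM against 0.203, 0.094 and 0.029 CPM; log2 difference 12.76, and 13.62 without SW620 replicate 1), and FEZ1, a kinesin adaptor of neurons (539, 558 and 475 CPM against 0.076, 0.157 and 0.143 CPM; 12.02). They were followed by FN1, by NAV2, a protein of axon guidance (11.01), and by CD109, a co-receptor of TGF-beta (10.99, and 11.66 without SW620 replicate 2). On the SW620 side were CLDN7, ST14, the ligase TRIM31, the secreted protease KLK10, the tetraspanin-like TM4SF4 and UGT1A10, with log2 differences of -10.10 to -10.46. These were larger without SUM159 replicate 3, with TM4SF4 at -12.55 and UGT1A10 at least 2370-fold higher in SW620. KLK10 then had a ratio of 31600 (5670 to 1250000, on 1 count) and TRIM31 one of 3200 (1100 to 15500, on 3 counts). UGT1A10, a glucuronidation enzyme, and UGT1A8 share exons with other UGT1A genes, so that their counts are uncertain.

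Some genes were detected in 1 line only. With 10 or more counts in each library of one line and 0 in the other, 492 genes were found in SUM159 alone and 170 in SW620 alone. Without SUM159 replicate 3 these counts were 528 and 312, so that the number restricted to SW620 depended on that library. PKNOX2, a homeodomain factor, was at 334, 346 and 280 CPM in SUM159 and at least 11200-fold higher there. EPB41L3, a membrane skeleton protein, PDPN, the mucin-like podoplanin, and BASP1, a membrane-bound signalling protein, followed at 225 ± 10.5, 207 ± 9.17 and 183 ± 15.0 CPM (SD, n = 3), with NPTX2, a neuronal pentraxin, and RAB34, a small GTPase, at 180 ± 19.7 and 175 ± 12.1 CPM. With SW620 alone were LRRC61, PRR15L, the desaturase DEGS2, UGT1A8, LGR5 and the gap junction protein GJB1, at 38.2 ± 2.41, 35.1 ± 2.20, 29.9 ± 1.97, 21.9 ± 0.196, 19.8 ± 1.60 and 19.7 ± 1.41 CPM. LRRC61 was at least 1330-fold higher in SW620, and at least 831-fold without SUM159 replicate 3, again through the lower depth behind the bound.

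The line difference in ALDHbr cells was set against that in ALDHneg cells to see which genes depend on the sorted population. The interaction passed the edgeR F test for 2278 of 15709 genes (14.5%), 1170 higher and 1108 lower. SW620 ALDHbr replicate 2 set much of this count, which was 4415 without it. The genes of each list were called in numbers that ranged from 1 of 14 luminal genes to 9 of 19 ALDH genes. Basal genes were called higher in 7 of 15 and lower in none. ITGB4, the hemidesmosomal integrin chain, was at 142, 137 and 155 CPM in SUM159 ALDHbr cells, at 10.2, 7.08 and 4.38 CPM in SUM159 ALDHneg cells, and at 402 ± 30.8 and 524 ± 23.0 CPM (SD, n = 3) in the SW620 populations. Its interaction was 4.71 ± 0.25 (SE, adjusted p = 5.71e-08). S100A4 was the reverse, at 4.28 ± 1.26 CPM in SUM159 ALDHbr cells, 85.7 ± 17.6 CPM in SUM159 ALDHneg cells, and 587 ± 89.1 and 617 ± 7.42 CPM in SW620, an interaction of -4.23 ± 0.24 (SE, adjusted p = 7.17e-08). Thus the line difference in ITGB4 was smaller and that in S100A4 larger among ALDHbr than among ALDHneg cells, and in both the SUM159 populations were farther apart than the SW620 populations. VIM and EPCAM, which separate the lines, had interactions of -0.28 and 1.98 that did not pass the test (adjusted p = 0.779 and 0.280).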

How the data were processed

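Total RNA of sorted ALDHbr and ALDHneg cells had been sequenced from a stranded total RNA kit, and the authors deposited raw counts per gene in 1 table of the series, with alignment by STAR to GRCh38 and quality control by FastQC according to the submitters' processing notes. Versions, counting tool and annotation are not given in the sources used here, nor is the handling of reads shared by gene families. Each of the 24 columns was matched to its sample by name, and the 6 ALDHbr libraries under DMSO, labelled by line, were compared unpaired.

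Counts were fitted in edgeR 4.0.16 (R 4.3.3) after filterByExpr and TMM normalization, with the quasi-likelihood F test and glmTreat against a log2 difference of 1 (the 2-fold test), Benjamini-Hochberg adjustment over all genes tested and a threshold of 0.05; every adjusted p in the text comes from these edgeR fits, and is that of the 2-fold test unless the F test or the interaction is named. CPM are counts scaled to TMM-normalized library sizes. The interaction was fitted over the 12 DMSO libraries of both lines. The fits were also run on simulated data in which few genes differed. Most genes differ between these lines, so that run does not test the fits under conditions like these. For a gene at 0 counts in a line, the fold was computed against a floor of 3 counts over the libraries of that line and is a lower bound; with 1 to 3 counts the ratio has an exact counting interval at 95%, which covers counting error only. All 6 libraries differed from their replicates by more than sampling noise and were each counted as 1 sample.

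The comparison and the 25 gene lists were chosen with earlier results of these data known. The genes named by rule began with the 6 largest differences in each direction. These had 10 or more counts in the lower line and mean log2 CPM no lower than 1. To them came the 6 with the highest mean among genes at 0 counts in one line, and the 2 highest and 2 lowest calls of each list. Also named were 16 fixed genes and the 3 highest and 3 lowest interactions. A further rule was chosen after seeing the data: the 6 highest and 6 lowest interactions with 10 or more counts in each group. Further list members were named as examples after their values were seen. In the line comparison replicate numbers were not taken as pairs, since the deviations of same-numbered SUM159 and SW620 ALDHbr libraries correlated at -0.061 to 0.011. Between SUM159 ALDHbr and ALDHneg libraries these correlations were 0.164 to 0.215, and between those of SW620 -0.026 to 0.046. The main interaction fit was unpaired as well and so leaves out this weak pairing in SUM159. With a replicate block within each line it gave 3277 calls, against 2278 without. Alternatives were DESeq2 1.42.0, other scalings and filters, fits with all 24 or the 12 DMSO libraries, a replicate block, and leaving out each library; those that count list members and genes of 1 line without SUM159 replicate 3 or SW620 replicate 2 were added after seeing the data. Libraries treated with the drug entered only the fit of all 24. Some genes of the lists are not reported by name here.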

Additional observations from a re-analysis of the deposited data

Results flagged for a closer look

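The line difference among ALDHbr cells departed from that among ALDHneg cells in 2278 genes, by the edgeR F test of the interaction. Of these, 2180 had 10 or more counts in each of the 4 groups, 1133 higher and 1047 lower. The genes given here were flagged by that test because the difference between the groups was itself called. Each value is the log2 line difference in ALDHbr cells minus that in ALDHneg cells. The rule that took the 6 highest and 6 lowest genes with 10 or more counts in each group was chosen after seeing the data.

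Among the highest, ALDH1A1 had 7.58 and PLCH2, a phospholipase C, had 5.14, with PLCH2 at 7.47 CPM in SUM159 ALDHbr cells, 0.304 CPM in SUM159 ALDHneg cells, and 0.471 and 0.672 CPM in the SW620 populations (means, n = 3). ITGB4 had 4.71, XDH, xanthine dehydrogenase, had 4.64 (SUM159 means of 40.3 and 3.61 CPM) and FCAR, an IgA receptor, had 4.52 (15.5 and 1.79 CPM; 3.70 without SW620 ALDHneg replicate 1). TGFA, a ligand of EGFR, had 4.61, with SUM159 means of 17.9 CPM in ALDHbr and 0.989 CPM in ALDHneg cells and SW620 means of 78.5 and 104 CPM.

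Among the lowest, KRT81, a hair keratin, had -4.71, with 1.52 CPM in SUM159 ALDHbr and 30.1 CPM in SUM159 ALDHneg cells. MCAM, the adhesion molecule CD146, had -4.59 (6.36 and 90.9 CPM), S100A4 had -4.23, and SARDH, sarcosine dehydrogenase, had -4.09 (0.653 and 7.00 CPM). COL6A1, a chain of collagen VI, had -3.95, with 7.65 and 47.3 CPM in SUM159 and 2.02 and 0.806 CPM in SW620, and NPAS2, a circadian transcription factor, had -3.51 (0.734 and 7.73 CPM in SUM159). In each of these 6 genes the SUM159 mean was lower in ALDHbr than in ALDHneg cells.

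In 5 genes a group held 0 or 1 count, so that the fitted value depends on the prior count and gives no size. These were NSG1 (8.50), with 1 count in SW620 ALDHneg and 0 in SW620 ALDHbr cells, SPINT1 (7.73), with 0 counts in SUM159 ALDHneg cells and 76 in SUM159 ALDHbr cells, FAM171A1 (-4.93), with 10 and 0 counts in SW620, HNMT (-5.53), with 0 and 16 counts in SUM159, and COL6A2 (-7.33), with 6 and 0 counts in SW620. For SPINT1, SUM159 ALDHbr replicate 3 was at 1.77 CPM and the other SUM159 ALDHbr libraries at 0.177 and 0.064 CPM, and without replicate 3 the value was 5.20 and was still called. NSG1 (6.63 without SW620 ALDHneg replicate 1) and FAM171A1 (-3.92 without SW620 ALDHbr replicate 1) lost their calls.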

How the results depend on the processing

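The count of genes past the 2-fold test ran from 5387 to 5828 without 1 library, and was 4811 by DESeq2, 6268 without a filter, 6151 in a fit of all 24 libraries and 5345 with a replicate block. It fell to 2720 with 10 or more counts in every library, where only 11811 genes were tested. The F test count ran from 11366 to 12595 without 1 library and was 11389 with the replicate block. No call of a named gene changed direction under these alternatives. For the other genes the direction was not compared. The replicate block within each line gave 3277 interaction calls and DESeq2 3001, and without 1 library there were 1544 (without SW620 ALDHneg replicate 2) to 4415 (without SW620 ALDHbr replicate 2). Genes with counts in SW620 alone numbered 170 with all libraries, 180 without SW620 ALDHbr replicate 2 and 312 without SUM159 replicate 3. Scaling by library size moved the median of all genes from 0.03 to 0.155 (log2) and the share of 2-fold calls higher in SUM159 from 54.8% to 58.8%.

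Of 1700 values of named genes under the alternatives, 1695 stayed on their side of the F test's threshold. SARDH came past it under library-size scaling (0.71) and in the fit of the 12 DMSO libraries, and KRT81 lost it without SUM159 replicate 3 (0.63), SW620 replicate 1 or SW620 replicate 2. Of 315 interaction values of named genes, 303 stayed and 12 lost the call, in NSG1, FAM171A1 and SPINT1. Of 350 list medians under the alternatives 66 moved, such as that of mesenchymal genes to 4.83 with 10 or more counts in every library. Medians near 0 changed sign, as for Fanconi anemia genes (-0.07, and 0.06 under library-size scaling) and basal genes (0.07, and -0.41 with 10 or more counts in every library). The matrix protease median of 4.69 was -0.41 under that filter, which removes genes low in one line. Epithelial genes were then at -4.05 with 8 genes tested, collagens at 2.73 with 10, intestinal genes at -2.66 with 4 and claudins at -0.26 with 3. The main filter kept genes that are high in one line alone.

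With 3 libraries a group, spread is estimated from few samples, and genes under the filter were not tested. Levels in SUM159 below about 0.331% of the SW620 level cannot be read from SUM159 replicate 3: of 2472 genes higher in SW620, 326 had a difference larger by over 1.5 times without it.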
